A study of Homo sapiens with 9 samples.

Results

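Interferon-stimulated genes and nucleic acid sensors were examined in PC3 xenografts as a module of 55 genes, chosen by name from what each gene is known to do. The choice was made with earlier results of these data known, so the shares called describe the module and are no independent test. All 55 were among the 16204 genes listed in either of 2 gene count tables, and in both of them. The question was how the genes that sense foreign or misplaced nucleic acid, carry the interferon signal and act at its end were expressed in residual tumors after treatment with an antibody-drug conjugate, compared with vehicle.

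PC3 is a human prostate cancer cell line derived from a bone metastasis. Per the series record, PC3 cells were injected under the skin of male NSG mice aged 11 weeks, and once tumors measured 90 mm3 the mice received PBS, T-DXd at 5 mg/kg or P-DXd at 5 mg/kg, weekly for 5 cycles, after which tumors were collected for RNA-Seq of the bulk tissue. The methods of the study give another age, starting volume and number of cycles for the experiment that compared both conjugates. NSG mice carry Prkdc scid and Il2rg mutations in every group and lack mature T, B and NK cells while keeping myeloid cells, so every xenograft was human tumor with mouse stroma and no adaptive immune system. T-DXd (trastuzumab deruxtecan) binds HER2, P-DXd (patritumab deruxtecan) binds HER3, and both carry the same topoisomerase I inhibitor. There were 3 libraries per group, each titled with its own animal code. For the 6 treated libraries the conjugate in the sample title is the opposite of the one in the treatment field. Treated groups are therefore named by their titles, P-DXd-titled or T-DXd-titled, and the comparison of all 6 treated with the 3 PBS libraries does not hinge on the conflict.

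Cells detect double-stranded RNA and 5′-triphosphate RNA in the cytoplasm through RIG-I and MDA5, and DNA through cGAS and STING. These sensors act through TBK1 and the transcription factors IRF3 and IRF7 to induce type I interferon. Interferon binds the receptor chains IFNAR1 and IFNAR2, and the complex ISGF3, which holds STAT2 and IRF9, switches on a wide set of antiviral effector genes through the interferon-stimulated response element in their promoters. IRF1 drives an overlapping set. Damage to DNA is one of the stimuli known to engage the sensors.

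Total counts ranged from 90761763 to 125538606 in the PBS libraries, from 54481702 to 83721486 in the P-DXd-titled and from 66954114 to 73655752 in the T-DXd-titled libraries, so that PBS was sequenced more deeply throughout. Levels are given as CPM, the counts divided by edgeR's normalized library sizes in units of 1e6 reads, and are compared between libraries and not between genes, since they are not per unit of transcript length. Of the 55 genes, 13 overlap another listed gene in position, among them IFIT1, IFIT2 and IFIT3 with LIPA, GBP2 with GBP7, MB21D1 with DDX43, PARP9 with DTX3L and RSAD2 with CMPK2, and 54 had enough counts to be tested. DHX58, which encodes LGP2, a regulator of the RNA sensors, had 0 to 12 counts per library and was not tested. A gene was called higher or lower at an adjusted p at or below 0.05 in edgeR's quasi-likelihood F test, adjusted over all genes tested, with a fold change of at least 1.5, and "rose" and "fell" are used only for genes called in this way. Changes are given on the log2 scale, each with its standard error (SE).

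A minority of the interferon module was higher in the treated xenografts. Against PBS, 15 of the 54 genes rose and 2 fell with all 6 treated libraries pooled, while 37 were not called. The risers were IFNAR1, IRF1, IFIH1, IFIT2, IFIT3, IFITM1, IFITM2, BST2, MX1, MX2, GBP2, ISG15, IFI6, ISG20 and XAF1. The genes that fell were IRF9, a subunit of ISGF3, and MB21D1, which encodes the DNA sensor cGAS.

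The share of the module called higher was 27.8%, against 15.2% of all 15070 genes tested, and the share called lower was 3.70%, against 17.1%. In either direction 31.5% of the module was called, against 32.2% of all genes, so about as many genes were called as among all genes and more of them upward. Its median log2 fold change was 0.34, against -0.014 for all genes, and 37 of 54 values were above 0. In 17 genes all 6 treated libraries exceeded all 3 PBS libraries and in 4 all 6 were below them, which was seen in 26.2% and 24.4% of all genes. The role groups described next hold 2 to 9 tested genes each, and their counts are to be read against these same shares of all genes, 15.2% higher and 17.1% lower. In bulk tissue, fewer cells of one type and less RNA per cell cannot be told apart.

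Between P-DXd-titled xenografts and PBS, 16 of 54 genes rose (29.6%, against 11.2% of all 14945 genes tested) and 2 fell (3.70%, against 13.8%), with a median of 0.43 against -0.0053. In T-DXd-titled xenografts 11 of 54 rose (20.4%, against 13.1% of all 14915 genes tested) and 3 fell (5.56%, against 15.5%), with a median of 0.26 against -0.019. The treated libraries lay wholly above PBS for 22 genes in the P-DXd-titled group (28.2% of all genes) and for 18 in the T-DXd-titled group (31.9%), and wholly below for 5 genes in each (27.2% and 29.4%). Both comparisons used the same 3 PBS libraries. Single libraries moved these counts. The first comparison called 6 genes without P-DXd-titled replicate 3 (12.1% of all genes were called in that fit) and 9 without PBS replicate 2 (18.2%). With all its libraries it called 25.0% of all genes. The second called 6 without T-DXd-titled replicate 3 (18.4%), 7 without its replicate 2 (19.7%) and 7 without PBS replicate 2 (24.5%), against 28.6% with all libraries. The comparison of all treated libraries called from 14 genes without PBS replicate 1 (27.6%) to 23 without PBS replicate 3 (34.3%). In each of these fits the share called among all genes moved in the same direction as the count. When the fold minimum was made part of the test itself, as edgeR's glmTreat does, 3 genes were called in each of the 3 comparisons with PBS. The shares of all genes called by glmTreat were 7.56% for P-DXd-titled, 11.4% for T-DXd-titled and 16.8% for all treated libraries. The map of the 54 genes by library shows IRF1 and GBP2 raised and IRF9 lowered in every treated library, with smaller and less even changes elsewhere.

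**Figure D1:**
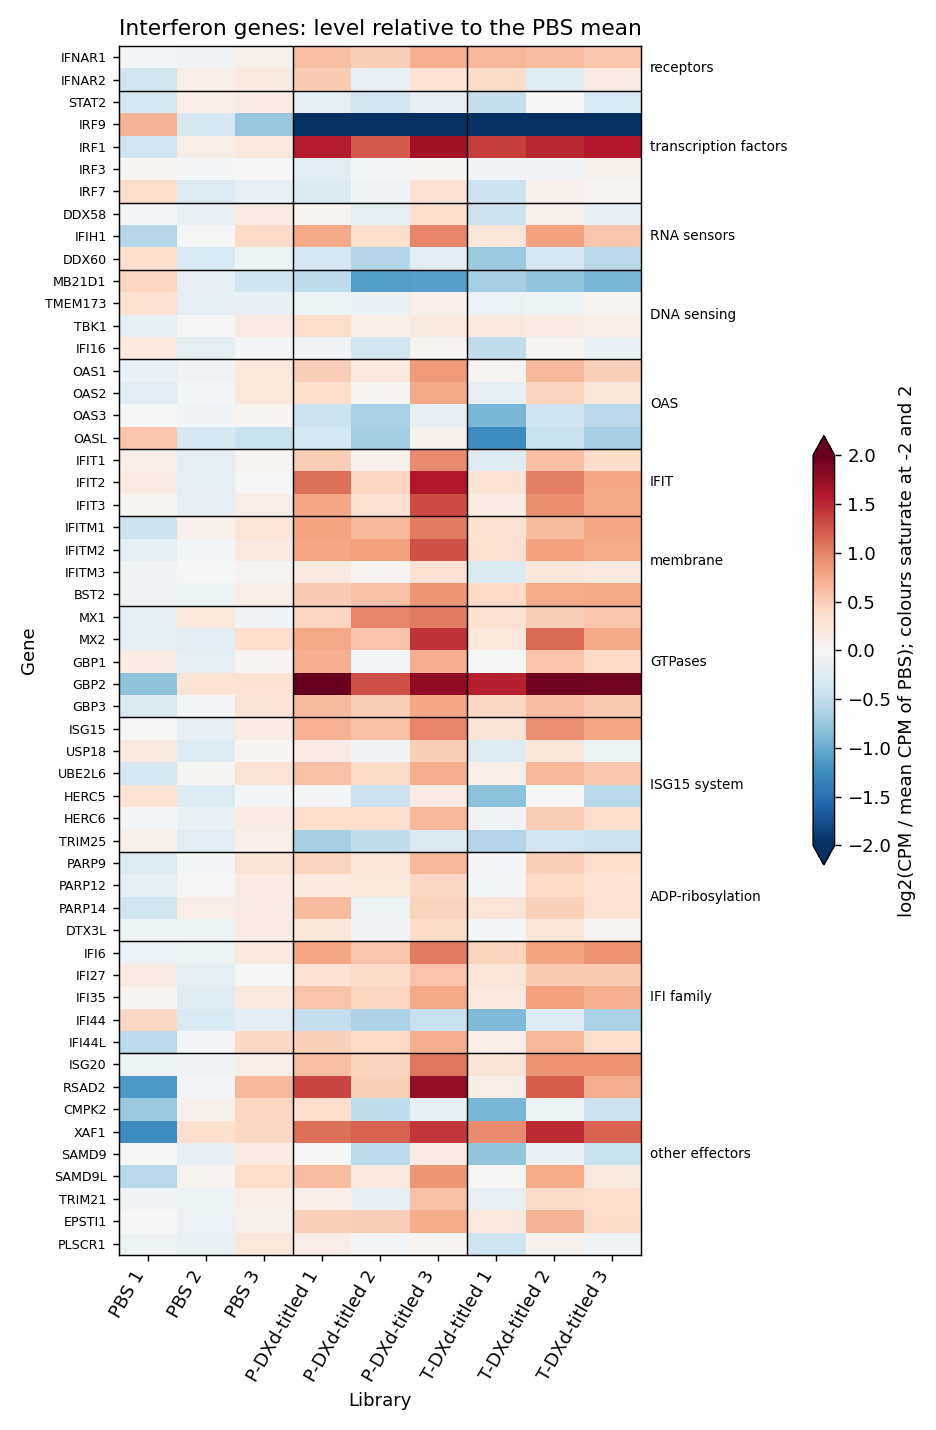
Level of each of the 54 tested interferon genes (rows, grouped by role) in each of the 9 libraries (columns), as log2 of its CPM over the mean CPM of PBS, with red above and blue below that mean and colors saturating at -2 and 2. IRF1 and GBP2 are red and IRF9 is dark blue in all 6 treated libraries, and P-DXd-titled replicate 3 is the reddest column.

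The promoters of the module carry the letters through which interferon signaling acts. Promoter windows of 300 bases, from 250 before to 50 after the start of the gene, were taken from RefSeq on GRCh38.p14, and 42 of the 55 genes had one. The letters GAAA, NN and GAAA in a row (N being any base) on either strand, the core of the interferon-stimulated response element (ISRE), were found in 25 of these 42 windows (59.5%) and in 3.65% of all 27305 windows. The letters TTCNNNGAA, which read alike on both strands and form the core of the gamma-activated site (GAS) bound by STAT dimers, were in 12 (28.6%) and in 7.88% of all windows. At least 1 of the patterns was in 29 windows (69.0%), against 11.1% of all. They were present in genes that rose and in genes that were not called alike: 8 of 11 windows of genes that rose with all treated libraries held the ISRE letters (72.7%), and so did 17 of 30 windows of genes that were not called (56.7%).

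To show what these promoters look like, stretches of 60 bases follow for risers (IFIT3, ISG15, IFI6, BST2, IFITM1), for 2 genes with ISRE letters whose log2 fold change was below 0 (OAS3, DDX60) and for the transcription factors that moved furthest (IRF1 up, IRF9 down). Each is given 5′ to 3′ on the gene's strand with matches in capitals. The first 7 show ISRE letters, where overlapping matches merge into 1 run, and the last 2 GAS letters.
IFIT3 (chr10:89327833-89327892, +): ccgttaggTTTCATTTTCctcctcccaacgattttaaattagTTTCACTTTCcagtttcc
ISG15 (chr1:1013362-1013421, +): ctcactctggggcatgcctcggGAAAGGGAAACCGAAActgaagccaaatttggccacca
IFI6 (chr1:27672251-27672310, -): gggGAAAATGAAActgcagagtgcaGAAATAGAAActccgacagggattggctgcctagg
BST2 (chr19:17405723-17405782, -): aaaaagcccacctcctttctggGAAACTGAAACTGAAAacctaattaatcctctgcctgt
IFITM1 (chr11:313975-314034, +): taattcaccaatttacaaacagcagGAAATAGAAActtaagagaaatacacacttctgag
OAS3 (chr12:112938414-112938473, +): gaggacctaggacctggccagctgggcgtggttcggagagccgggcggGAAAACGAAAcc
DDX60 (chr4:168318789-168318848, -): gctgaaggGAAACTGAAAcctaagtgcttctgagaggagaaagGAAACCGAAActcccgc
IRF1 (chr5:132490864-132490923, -): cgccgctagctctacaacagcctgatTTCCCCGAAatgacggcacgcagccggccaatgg
IRF9 (chr14:24161176-24161235, +): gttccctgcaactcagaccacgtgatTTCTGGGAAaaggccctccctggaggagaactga
In ISG15 and BST2 a pair of matches overlaps into a run of 3 GAAA repeats, and in IFIT3, IFI6 and DDX60 a pair lies apart within the stretch, in IFIT3 on the other strand. The letters are a description of the sequence and not evidence of binding.

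Among the receptor chains, IFNAR1 rose and IFNAR2 was not called. IFNAR1, the chain that docks the kinase TYK2, measured 70.7, 69.9 and 76.4 CPM with PBS, 109.6, 102 and 119 CPM in P-DXd-titled and 115, 111 and 105 CPM in T-DXd-titled libraries. All treated libraries lay above all PBS libraries, with little spread in any group. The rise (log2 fold change 0.59 with SE 0.069, adjusted p 6.72e-05) was at the fold minimum itself, so that leaving out PBS replicate 2 (log2 fold change 0.56), replicate 1 of the T-DXd-titled (0.57) or replicate 3 of the P-DXd-titled group (0.58) took it below that minimum while the adjusted p remained at or below 0.000651. IFNAR2, the chain that binds interferon tightly and docks JAK1, measured 3.28, 4.58 and 4.77 CPM with PBS, 5.97, 3.80 and 5.11 CPM in P-DXd-titled and 5.45, 3.54 and 4.70 CPM in T-DXd-titled libraries. Its groups overlapped and its change was small beside its error (log2 fold change 0.16 with SE 0.20, adjusted p 0.519). Of the 100-base stretches in the GENCODE v44 transcripts of IFNAR2, 75.9% also occur in other annotated genes, mainly a readthrough with IL10RB, so its count may hold only part of its reads.

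The transcription factors split. IRF1, which binds ISRE-like sites and is itself induced by interferon gamma, measured 32.6, 46.7 and 49.1 CPM with PBS, 127, 100.2 and 136 CPM in P-DXd-titled and 111, 122 and 129 CPM in T-DXd-titled libraries. Every treated library was well above every PBS library, and the treated groups overlapped each other. The rise was 2.79-fold (log2 fold change 1.48 with SE 0.14, adjusted p 1.77e-05), and it was called in all 12 alternative fits (log2 fold change 1.33 to 1.58). These 12, for each gene named here, are fits of the pooled comparison of all treated libraries with PBS. They are edgeR with another scaling, DESeq2, a replicate block and 9 fits that left out 1 library each. The test by glmTreat, which called 3 genes in all, is not among them. Each treated group alone against PBS had 10 alternative fits, and IRF1 kept its call in all of those too.

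IRF9, the DNA-binding subunit of ISGF3, went the other way. It measured 9.88, 4.93 and 3.64 CPM with PBS, 1.04, 0.978 and 1.099 CPM in P-DXd-titled and 1.26, 1.00 and 1.32 CPM in T-DXd-titled libraries. PBS replicate 1 was the highest, the other PBS libraries lay well below it, and all treated libraries were close together beneath all of PBS. The fall was 5.60-fold (log2 fold change -2.48 with SE 0.27, adjusted p 4.44e-05) and was called in all 12 alternative fits, with a log2 fold change of -1.94 to -2.75. IRF9 is listed as overlapping a clone-named gene, and 31.9% of its 100-base transcript stretches occur in other annotated genes. The clone-named gene also fell, from 0.746 ± 0.388 (SD, n = 3) to 0.211 ± 0.0963 CPM (SD, n = 6). How reads were shared between the pair was not tested.

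STAT2, the partner of IRF9 in ISGF3, measured 125, 177 and 179 CPM with PBS, 139.6, 124 and 144 CPM in P-DXd-titled and 117, 161 and 129 CPM in T-DXd-titled libraries. Its groups overlapped (log2 fold change -0.26 with SE 0.13, adjusted p 0.101). IRF3, the constitutive factor activated by TBK1, measured 49.6, 47.7 and 48.7 CPM with PBS, 41.6, 47.8 and 49.3 CPM in P-DXd-titled and 46.6, 46.7 and 50.9 CPM in T-DXd-titled libraries. It was the steadiest of the transcription factors, with a log2 fold change of -0.067 and a 95% confidence interval of -0.23 to 0.091. IRF7, an interferon-induced factor that amplifies the response, measured 132, 85.5 and 93.1 CPM with PBS, 84.9, 99.3 and 126 CPM in P-DXd-titled and 77.6, 110.1 and 106 CPM in T-DXd-titled libraries. Its groups overlapped fully (log2 fold change -0.063 with SE 0.17, adjusted p 0.770).

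**Figure D2:**
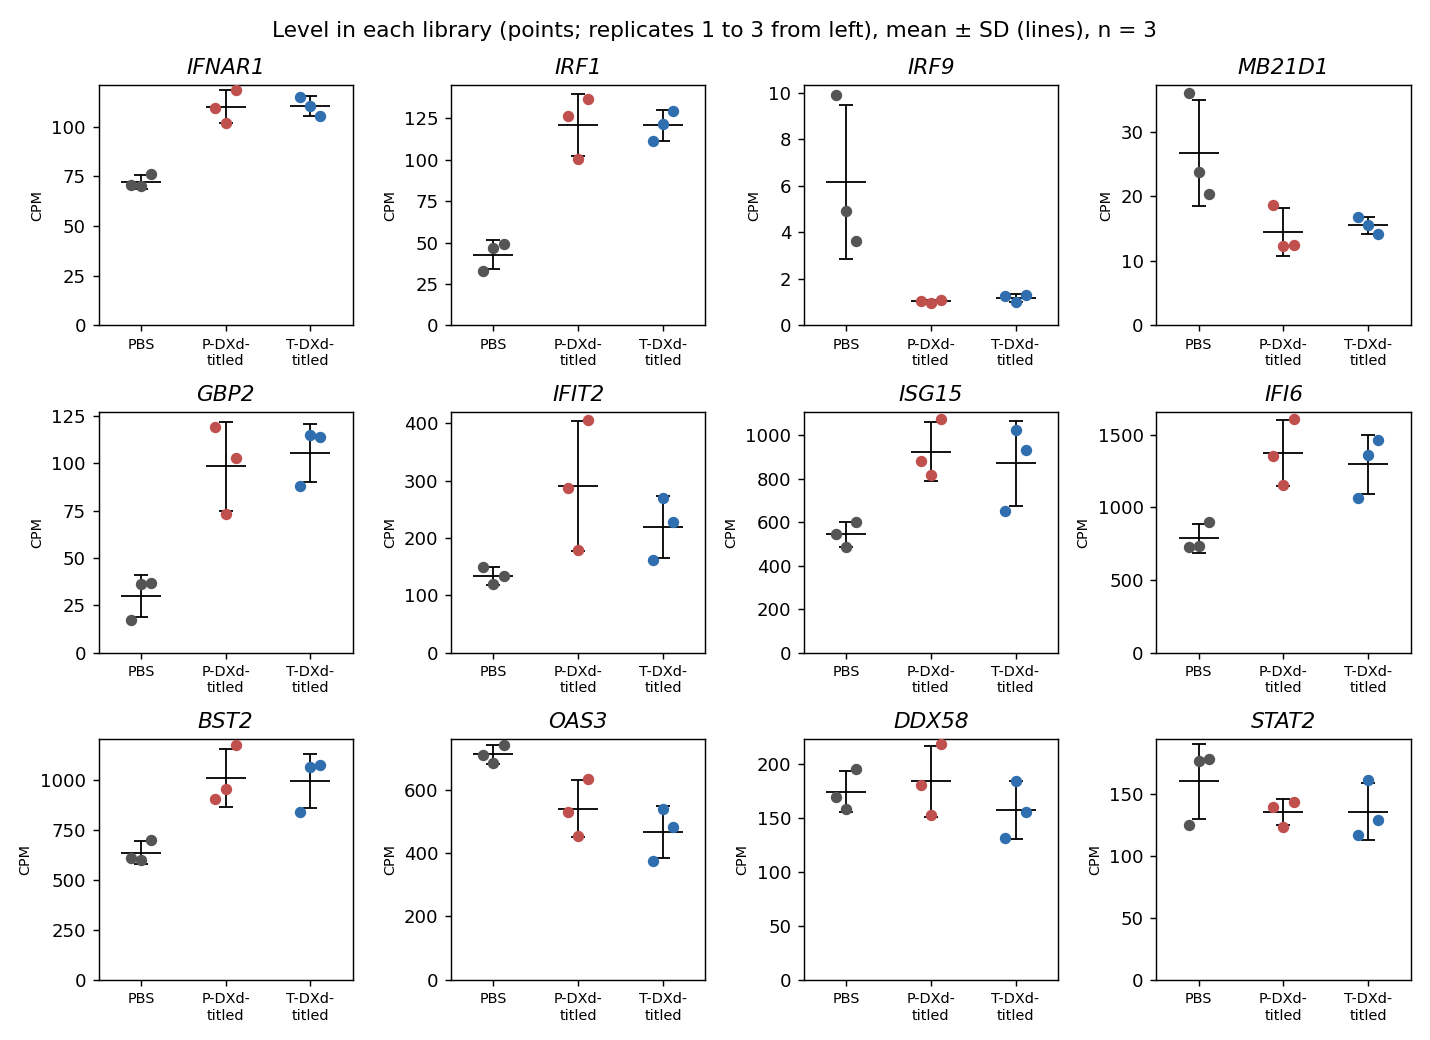
CPM (linear axis from 0) of 12 interferon genes in each library as points, with the mean and SD of each group as lines (n = 3). IRF1, GBP2 and IFNAR1 in treated libraries lie above every PBS library and IRF9 and MB21D1 lie below, while DDX58 and STAT2 overlap between groups.

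Among sensors of RNA, 1 of 3 tested genes rose. DDX58, which encodes RIG-I, measured 169.8, 158 and 196 CPM with PBS, 181, 153 and 219 CPM in P-DXd-titled and 131, 185 and 156 CPM in T-DXd-titled libraries. The groups overlapped and the change was within its error (log2 fold change -0.054 with SE 0.14, adjusted p 0.763). Of its transcript stretches, 82.7% also occur in another annotated gene of GENCODE v44. Its count would be uncertain if that gene was in the annotation used for counting, which is not known. IFIH1, which encodes MDA5, a sensor of long double-stranded RNA, measured 93.1, 139.6 and 183 CPM with PBS, 234, 174 and 272 CPM in P-DXd-titled and 163, 242 and 204 CPM in T-DXd-titled libraries. PBS was itself wide, from PBS replicate 1 at the bottom to PBS replicate 3, which exceeded P-DXd-titled replicate 2 and T-DXd-titled replicate 1. It rose 1.53-fold (log2 fold change 0.61 with SE 0.21, adjusted p 0.0297), but the call was lost without PBS replicate 1 (log2 fold change 0.41), PBS replicate 2 (0.61), replicate 2 of the T-DXd-titled (0.58) or replicates 1 (0.59) or 3 (0.54) of the P-DXd-titled group, with adjusted p from 0.0536 to 0.0739, and it was not called in either treated group alone (adjusted p 0.0732 and 0.127). That outcome depended on the fit, since in P-DXd-titled IFIH1 was called by DESeq2 (0.70, adjusted p 0.0258) and with all 9 libraries in 1 fit (0.69, adjusted p 0.0441), and in both groups without PBS replicate 3 (0.94 and 0.78).

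DDX60, a helicase linked to RIG-I signaling, measured 236, 151 and 175 CPM with PBS, 149, 125 and 162 CPM in P-DXd-titled and 112, 148 and 127 CPM in T-DXd-titled libraries. PBS replicate 1 stood highest, PBS replicate 2 lay among the treated libraries, and the change, although past the adjusted p, was below the fold minimum (log2 fold change -0.47 with SE 0.15, adjusted p 0.0194). Without PBS replicate 2 it was called lower (-0.61, adjusted p 0.00824). DHX58 was at 0 to 0.0932 CPM, and no change can be read from it.

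Of 4 DNA sensing genes, 1 fell and 3 were not called. MB21D1, which encodes cGAS, the enzyme that makes cGAMP on contact with DNA, measured 36.0, 23.8 and 20.4 CPM with PBS, 18.7, 12.3 and 12.4 CPM in P-DXd-titled and 16.8, 15.5 and 14.2 CPM in T-DXd-titled libraries. All treated libraries lay below all PBS libraries, of which PBS replicate 1 was far the highest. It fell 1.81-fold (log2 fold change -0.86 with SE 0.19, adjusted p 0.00286), and without PBS replicate 1 the change was below the fold minimum (-0.56, adjusted p 0.00595). In the separate comparisons the MB21D1 call was lost in 3 of 10 alternative fits for P-DXd-titled and 5 of 10 for T-DXd-titled. TMEM173, which encodes STING, the receptor for cGAMP, measured 21.5, 15.3 and 15.5 CPM with PBS, 16.3, 15.8 and 18.8 CPM in P-DXd-titled and 16.0, 16.4 and 18.1 CPM in T-DXd-titled libraries. PBS replicate 1 was the highest and the remaining libraries lay close together (log2 fold change -0.067 with SE 0.12, adjusted p 0.663), with a 95% confidence interval of -0.34 to 0.21.

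TBK1, the kinase downstream of STING and of the RNA sensors, measured 45.3, 51.9 and 57.8 CPM with PBS, 66.0, 56.5 and 58.2 CPM in P-DXd-titled and 58.9, 57.2 and 56.8 CPM in T-DXd-titled libraries. PBS replicate 3 lay among the treated libraries and the change was not called (log2 fold change 0.17 with SE 0.083, adjusted p 0.104). IFI16, a nuclear DNA-binding protein of the same route, measured 183, 140.5 and 157 CPM with PBS, 155, 124 and 165 CPM in P-DXd-titled and 114, 166 and 146 CPM in T-DXd-titled libraries. Its groups overlapped (log2 fold change -0.17 with SE 0.13, adjusted p 0.310). Of the 7 tested sensors and sensing intermediates, then, IFIH1 rose, MB21D1 fell and 5 were not called.

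The OAS genes, of which OAS1, OAS2 and OAS3 encode enzymes that make 2-5A upon contact with double-stranded RNA, did not move together. OAS3 measured 711, 683 and 741 CPM with PBS, 530.3, 455 and 634 CPM in P-DXd-titled and 377, 538 and 483 CPM in T-DXd-titled libraries. All treated libraries were below all PBS libraries. It fell in T-DXd-titled xenografts (1.55-fold; log2 fold change -0.63 with SE 0.14, adjusted p 0.0115), a call lost without T-DXd-titled replicate 1 (-0.49), and was below PBS without a call in P-DXd-titled (log2 fold change -0.41 with SE 0.14, adjusted p 0.0549) and with all treated libraries (log2 fold change -0.52 with SE 0.13, adjusted p 0.00656), where it was called without P-DXd-titled replicate 3 (-0.59). OAS1, OAS2 and OASL were not called, with log2 fold changes of 0.46, 0.28 and -0.52 for both conjugates against PBS, of which OAS1 was past the adjusted p alone (0.0336).

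The IFIT genes, whose products bind viral RNA and block its translation, rose in 2 of 3 cases. IFIT2 measured 150.2, 119 and 133 CPM with PBS, 288, 179.6 and 405 CPM in P-DXd-titled and 162, 269 and 228 CPM in T-DXd-titled libraries. Each treated library exceeded each PBS library, and P-DXd-titled replicate 3 was far above the rest. The rise was 1.88-fold (log2 fold change 0.91 with SE 0.26, adjusted p 0.0119) and was called in all 12 alternative fits (log2 fold change 0.74 to 1.01). In the separate comparisons the IFIT2 call was lost in 3 of 10 alternative fits for P-DXd-titled and 6 of 10 for T-DXd-titled. IFIT3 measured 214, 186 and 226 CPM with PBS, 355, 257 and 517 CPM in P-DXd-titled and 232, 398 and 354 CPM in T-DXd-titled libraries. Again all treated libraries were above PBS, T-DXd-titled replicate 1 only just. It rose 1.66-fold (log2 fold change 0.73 with SE 0.22, adjusted p 0.0163), a call lost without PBS replicate 2 (0.65, adjusted p 0.0650). Its separate calls were lost in 4 of 10 alternative fits for P-DXd-titled and 6 of 10 for T-DXd-titled. IFIT1 had a log2 fold change of 0.40 (adjusted p 0.139) and was not called. All 3 overlap LIPA, and whether counting used strand is not stated.

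Among membrane proteins that restrict virus entry or release, 3 of 4 rose. IFITM2 measured 25.0, 28.2 and 32.4 CPM with PBS, 48.7, 50.4 and 69.0 CPM in P-DXd-titled and 35.4, 49.9 and 47.6 CPM in T-DXd-titled libraries. The groups did not overlap, and P-DXd-titled replicate 3 was the highest. It rose 1.73-fold (log2 fold change 0.79 with SE 0.17, adjusted p 0.00281), and was called in all 12 alternative fits. For T-DXd-titled alone the IFITM2 call was lost in 5 of 10 alternative fits, and for P-DXd-titled in none. IFITM1 measured 129.6, 183 and 203 CPM with PBS, 297, 274 and 355 CPM in P-DXd-titled and 212, 267 and 295 CPM in T-DXd-titled libraries. The groups did not overlap, and the rise was 1.63-fold (log2 fold change 0.70 with SE 0.17, adjusted p 0.00450), below the fold minimum without PBS replicate 1 (0.55). In the separate comparisons IFITM1 was called in P-DXd-titled (log2 fold change 0.84 with SE 0.18, adjusted p 0.0144), a call lost without P-DXd-titled replicate 3 (0.73, adjusted p 0.0632), and not in the T-DXd-titled group (log2 fold change 0.57 with SE 0.19, adjusted p 0.0469), where 1.48-fold was just below the fold minimum and the call appeared without PBS replicate 3 (0.70).

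BST2, which encodes tetherin, measured 609, 599 and 702 CPM with PBS, 904, 958 and 1176 CPM in P-DXd-titled and 839.6, 1068 and 1079 CPM in T-DXd-titled libraries. No treated library came down to the PBS range. BST2 rose 1.56-fold (log2 fold change 0.64 with SE 0.11, adjusted p 0.000835) and was called in all 12 alternative fits (log2 fold change 0.59 to 0.71). Its separate calls were lost in 1 of 10 alternative fits for P-DXd-titled and 4 of 10 for T-DXd-titled. IFITM3 had a log2 fold change of 0.10 and was not called. IFITM1 and IFITM2 are listed as overlapping, and 19.2% of the IFITM1 transcript stretches occur in other annotated genes, IFITM3 among them, so these family members may share reads.

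Interferon-induced GTPases included the largest rise of the module. GBP2, a guanylate-binding protein that attacks membranes of intracellular pathogens, measured 17.2, 36.1 and 36.6 CPM with PBS, 119, 73.0 and 103 CPM in P-DXd-titled and 88.0, 115 and 114 CPM in T-DXd-titled libraries. All treated libraries lay far above all PBS libraries. It rose 3.36-fold (log2 fold change 1.75 with SE 0.25, adjusted p 0.000195) and was called in all 12 alternative fits (log2 fold change 1.48 to 1.91). GBP3 measured 53.5, 64.9 and 78.7 CPM with PBS, 102, 92.8 and 112 CPM in P-DXd-titled and 87.7, 101 and 94.5 CPM in T-DXd-titled libraries. The groups did not overlap. It rose in P-DXd-titled xenografts (log2 fold change 0.63 with SE 0.15, adjusted p 0.0198), a call lost without PBS replicate 1 (0.51), PBS replicate 2 (0.61), P-DXd-titled replicate 1 (0.63) or P-DXd-titled replicate 3 (0.57), and stayed below the fold minimum in T-DXd-titled (log2 fold change 0.50 with SE 0.14, adjusted p 0.0275), unless PBS replicate 3 was left out (0.65), and with all treated libraries (log2 fold change 0.56 with SE 0.12, adjusted p 0.00214), where it was called without PBS replicate 3 (0.71) or T-DXd-titled replicate 1 (0.59).

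MX2, which blocks nuclear import of viral genomes, measured 41.0, 40.2 and 59.2 CPM with PBS, 79.1, 69.2 and 127 CPM in P-DXd-titled and 54.3, 103 and 79.5 CPM in T-DXd-titled libraries. T-DXd-titled replicate 1 fell within the PBS range and the other treated libraries lay above it. The rise was 1.80-fold (log2 fold change 0.85 with SE 0.24, adjusted p 0.0129) and was lost without PBS replicate 2 (0.74, adjusted p 0.0557). It was called in P-DXd-titled xenografts (log2 fold change 0.97 with SE 0.26, adjusted p 0.0267), though not without PBS replicate 2 (0.85), P-DXd-titled replicate 1 (1.06) or P-DXd-titled replicate 3 (0.66), and not in the T-DXd-titled group (log2 fold change 0.73 with SE 0.25, adjusted p 0.0524), though it was called without PBS replicate 1 (0.65), PBS replicate 3 (0.93) or T-DXd-titled replicate 1 (0.95).

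MX1, the related cytoplasmic GTPase, measured 2.53, 3.33 and 2.76 CPM with PBS, 3.88, 5.63 and 5.89 CPM in P-DXd-titled and 3.54, 4.03 and 4.19 CPM in T-DXd-titled libraries. These levels were low and the groups did not overlap. It rose 1.55-fold (log2 fold change 0.64 with SE 0.20, adjusted p 0.0205), below a threshold without PBS replicate 1 (0.57), PBS replicate 3 (0.60), P-DXd-titled replicate 2 (0.56) or P-DXd-titled replicate 3 (0.56). It was called in P-DXd-titled (log2 fold change 0.83 with SE 0.24, adjusted p 0.0357), a call lost without PBS replicate 2 (0.93), PBS replicate 3 (0.79), P-DXd-titled replicate 2 (0.76) or P-DXd-titled replicate 3 (0.72), and not in the T-DXd-titled group (log2 fold change 0.43 with SE 0.19, adjusted p 0.106). GBP1 had a log2 fold change of 0.41 (adjusted p 0.0758) and was not called.

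In the ISG15 system, in which ISG15 is attached to other proteins by UBE2L6 and HERC5 and removed by USP18, only ISG15 itself rose among 6 genes. ISG15 measured 545, 486 and 602 CPM with PBS, 879, 818 and 1076 CPM in P-DXd-titled and 652, 1024 and 933 CPM in T-DXd-titled libraries. All treated libraries exceeded PBS, T-DXd-titled replicate 1 by the least. The rise was 1.62-fold (log2 fold change 0.70 with SE 0.15, adjusted p 0.00232) and was called in all 12 alternative fits (log2 fold change 0.62 to 0.78). For T-DXd-titled alone the ISG15 call was lost in 4 of 10 alternative fits, and for P-DXd-titled in none. UBE2L6 (0.50, adjusted p 0.0163) and HERC6 (0.34, adjusted p 0.0490) were past the adjusted p upward and TRIM25, a ligase that acts on RIG-I, downward (-0.49, adjusted p 0.00188), all below the fold minimum. USP18 and HERC5 had log2 fold changes of 0.080 and -0.26, and 33.6% of the USP18 transcript stretches occur in other annotated genes. The ADP-ribosylation group of PARP9, PARP12, PARP14 and DTX3L had no call, with log2 fold changes of 0.12 to 0.34.

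Of the IFI family, 1 of 5 genes rose (20.0%, near the 15.2% of all genes). IFI6, a mitochondrial and endoplasmic reticulum protein that restrains cell death and virus replication, measured 728, 732 and 900.0 CPM with PBS, 1352, 1157 and 1609.5 CPM in P-DXd-titled and 1067, 1359 and 1461 CPM in T-DXd-titled libraries. The groups did not overlap. IFI6 rose 1.67-fold (log2 fold change 0.74 with SE 0.13, adjusted p 0.000924), called in all 12 alternative fits (log2 fold change 0.69 to 0.85). For T-DXd-titled alone its call was lost in 1 of 10 alternative fits, and for P-DXd-titled in none. IFI35 measured 76.4, 63.3 and 84.2 CPM with PBS, 111, 100.4 and 127 CPM in P-DXd-titled and 85.3, 132 and 122 CPM in T-DXd-titled libraries. The groups did not overlap, with T-DXd-titled replicate 1 next to PBS. Its changes sat at the fold minimum, called in P-DXd-titled (log2 fold change 0.59 with SE 0.14, adjusted p 0.0196) and not in T-DXd-titled (log2 fold change 0.58 with SE 0.18, adjusted p 0.0399) or with all treated libraries (log2 fold change 0.57 with SE 0.14, adjusted p 0.00592). The P-DXd-titled call was lost without PBS replicate 2 (0.46), P-DXd-titled replicate 1 (0.59) or P-DXd-titled replicate 3 (0.50), and a T-DXd-titled call appeared without PBS replicate 1 (0.60), PBS replicate 3 (0.67) or T-DXd-titled replicate 1 (0.75). In the pooled comparison IFI35 was called without PBS replicate 1 (0.61), PBS replicate 3 (0.67), replicate 1 of the T-DXd-titled (0.64) or replicate 2 of the P-DXd-titled group (0.61). IFI27 (0.40, adjusted p 0.00770) and IFI44 (-0.57, adjusted p 0.0142) were past the adjusted p in opposite directions below the fold minimum, and IFI44L (0.45, adjusted p 0.0607) was not past it.

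Among 9 other effectors, XAF1 and ISG20 rose. XAF1, a pro-apoptotic partner of XIAP, measured 12.8, 38.5 and 40.9 CPM with PBS, 66.0, 69.6 and 81.7 CPM in P-DXd-titled and 59.3, 86.1 and 69.7 CPM in T-DXd-titled libraries. PBS replicate 1 was far below the other PBS libraries, and all treated libraries were above them. It rose 2.32-fold (log2 fold change 1.21 with SE 0.30, adjusted p 0.00574), called in all 12 alternative fits (log2 fold change 0.86 to 1.47). Its separate calls lay close to the threshold, with adjusted p 0.0454 for P-DXd-titled and 0.0478 for T-DXd-titled. The XAF1 call was lost in 4 of 10 alternative fits for the former and 5 of 10 for the latter. Every fit that left out a treated library of the group was among these losses. Of the XAF1 transcript stretches, 62.5% occur in another annotated gene. ISG20, an exonuclease that degrades viral RNA, measured 36.7, 37.3 and 42.4 CPM with PBS, 58.7, 53.4 and 81.8 CPM in P-DXd-titled and 46.2, 72.7 and 72.7 CPM in T-DXd-titled libraries. The groups did not overlap, and T-DXd-titled replicate 1 was the closest to PBS. It rose 1.63-fold (log2 fold change 0.71 with SE 0.17, adjusted p 0.00461), called in all 12 alternative fits (log2 fold change 0.61 to 0.79). Separately, the ISG20 call was lost in 2 of 10 alternative fits for P-DXd-titled and 4 of 10 for T-DXd-titled. RSAD2, which encodes viperin, had one of the larger values and a large error (log2 fold change 1.03 with SE 0.41, adjusted p 0.0550) and was not called. EPSTI1 was past the adjusted p below the fold minimum (0.48, adjusted p 0.00512). CMPK2, SAMD9, SAMD9L, TRIM21 and PLSCR1 were not called, with log2 fold changes of -0.28 to 0.46.

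The plot of log2 fold changes by treated group places the 2 estimates for each gene side by side. Among called genes the largest in both groups were GBP2, IRF1 and IRF9, and the others came nearer to the fold minimum, XAF1 in P-DXd-titled being the largest of them at 1.23.

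**Figure D3:**
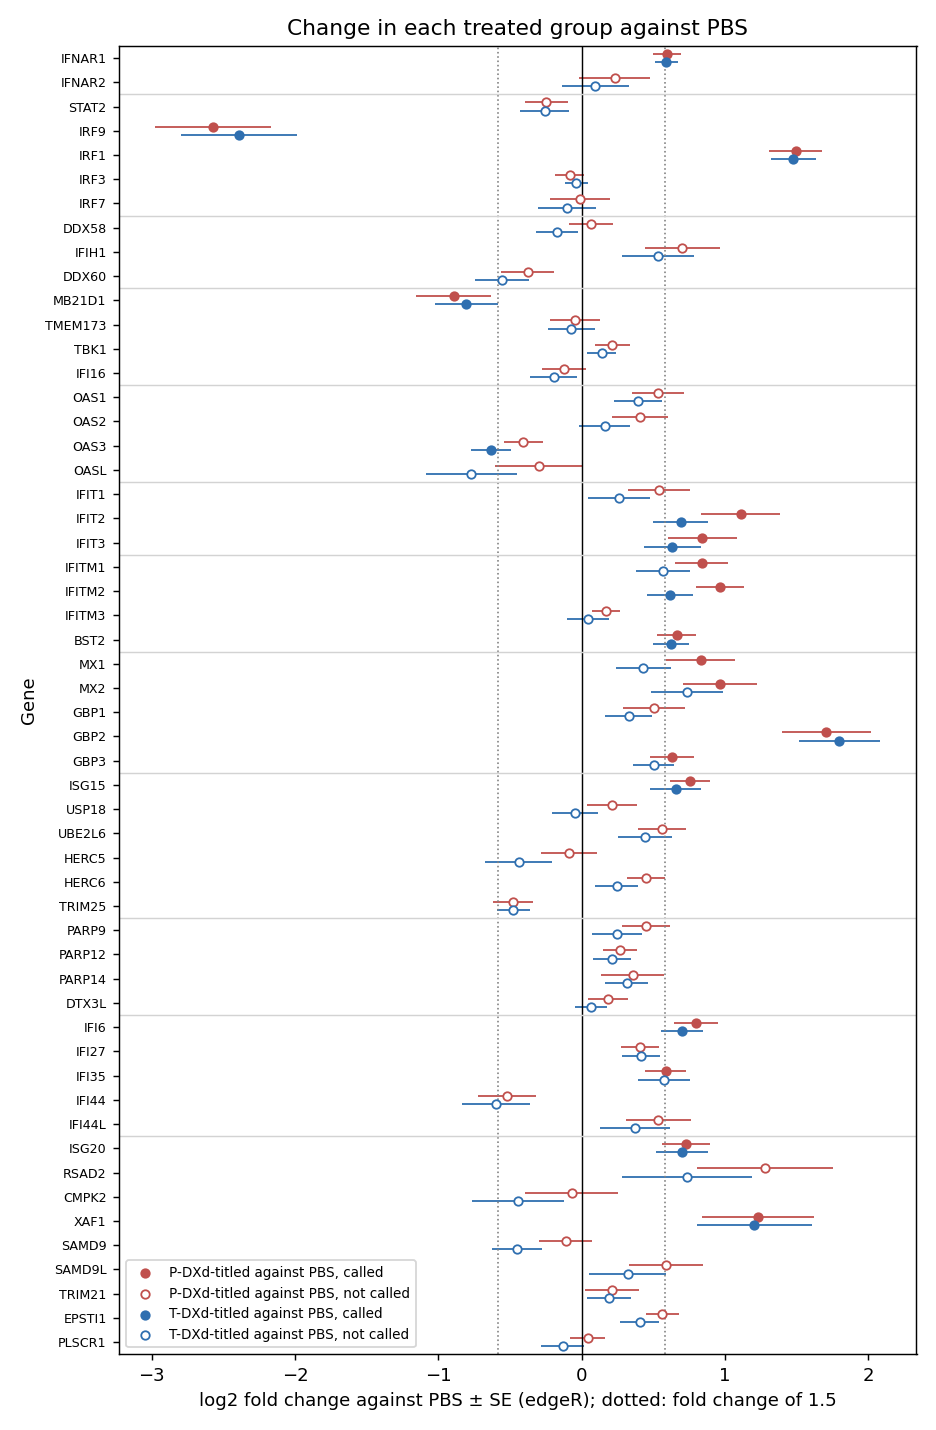
Log2 fold change against PBS (points) with its SE (lines) for the 54 tested genes in P-DXd-titled (red) and T-DXd-titled (blue) xenografts, with filled points for called genes and dotted lines at a fold change of 1.5. IRF9 lies below -2 and GBP2 and IRF1 lie above 1.4 in both, and most other called genes sit just beyond a dotted line.

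No gene of the module was called between the treated groups. None of 54 was called by edgeR or by DESeq2, and 0 had an unadjusted p under 0.05 in edgeR (smallest 0.0512, for IFITM2). Over all 14653 genes tested, 0.0273% were called. The log2 difference, P-DXd-titled minus T-DXd-titled, had a median of 0.12 (all genes 0.0044) and ranged from -0.19 for IRF9 to 0.54 for RSAD2. Half-widths of the 95% confidence intervals had a median of 0.32 and reached 0.68, so smaller differences could not be told from 0 by these intervals. A call also required adjustment over all genes tested and the fold minimum, so larger differences could go uncalled as well. For IRF1 the interval was -0.24 to 0.25, for IFNAR1 -0.17 to 0.16 and for GBP2 -0.46 to 0.26. For IFIT2 it was -0.16 to 0.98 and for RSAD2 -0.14 to 1.22. Genes called against PBS in one treated group alone (IFITM1, MX1, MX2, GBP3 and IFI35 in P-DXd-titled, OAS3 in T-DXd-titled) were thus not shown to differ between the groups.

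Within each treated group, the module followed the library. P-DXd-titled replicate 3 had the highest level of its group for 47 of 54 genes (87.0%), while it was highest for 31.7% of all genes, and P-DXd-titled replicate 2 was the lowest for 44 of 54 (81.5%, against 32.8%). In the T-DXd-titled group, replicate 1 was the lowest for 49 of 54 (90.7%, against 35.1%) and replicate 2 the highest for 40 (74.1%, against 29.7%). PBS replicate 3 was the highest PBS library for 38 of 54 (70.4%, against 33.4%), and PBS replicate 2 the lowest for 27 (50.0%, against 21.8%). The genes are not independent of each other, and the cause of this ordering was not tested.

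A score, the mean log2 CPM of the 55 genes minus the PBS mean, put replicate 3 highest and replicate 2 lowest of the P-DXd-titled group, and replicate 2 highest and replicate 1 lowest of the T-DXd-titled group. It was -0.10, -0.033 and 0.14 in the PBS libraries, 0.36, 0.13 and 0.57 in the P-DXd-titled and -0.026, 0.40 and 0.27 in the T-DXd-titled libraries. T-DXd-titled replicate 1 lay within the PBS range and P-DXd-titled replicate 2 just under PBS replicate 3, while the other 4 treated libraries were above all PBS. The treated mean exceeded the PBS mean by 0.285, with an SD of 0.210 among the 6 treated and 0.124 among the 3 PBS libraries. The bar plot of the score shows this spread.

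**Figure D4:**
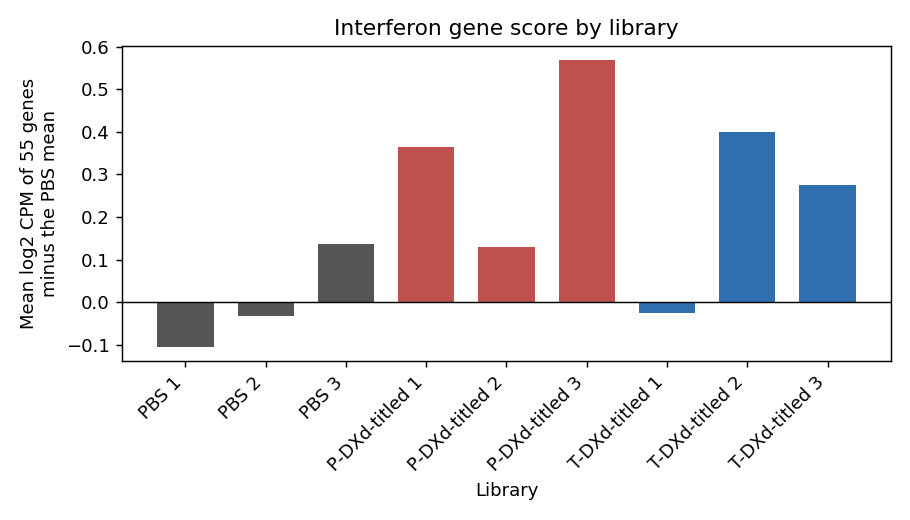
Mean log2 CPM of the 55 interferon genes minus the PBS mean (bars from 0) in each of the 9 libraries, gray for PBS, red for P-DXd-titled and blue for T-DXd-titled. P-DXd-titled replicate 3 is the highest at 0.57, and T-DXd-titled replicate 1, at -0.026, lies within the PBS range of -0.10 to 0.14.

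Genes of the same pathway outside the module were taken from a list of 40, also chosen with earlier results known. Of these, 39 were listed and tested. With all treated libraries 11 rose (28.2%, against 15.2% of all genes) and 1 fell (2.56%, against 17.1%), with a median of 0.23. Among those that rose were APOL1 (log2 fold change 1.44), TREX1, the exonuclease that clears cytoplasmic DNA (1.41), IL10RB, a receptor chain for interferon lambda (1.38), RTP4 (1.12), APOL6 (0.95), TLR3, an endosomal sensor of double-stranded RNA (0.75), and IFNGR1, a receptor chain for interferon gamma (0.59). IRF8 (2.12) also rose, at or below 1.11 CPM in every library. PNPT1, a mitochondrial RNA-degrading enzyme, fell (log2 fold change -0.88 with SE 0.14, adjusted p 0.000363). MAVS, the adaptor of the RNA sensors, was past the adjusted p downward (-0.43, adjusted p 0.000691) and JAK1 upward (0.47, adjusted p 0.00258), both below the fold minimum.

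Transcripts of the interferons themselves were scarce. Of 9 ligand genes, 7 were listed and 6 tested with all treated libraries, of which 1 rose and 2 fell, and their summed level was 2.98 to 4.90 CPM with PBS, 1.47 to 2.27 CPM in P-DXd-titled and 1.45 to 2.59 CPM in T-DXd-titled libraries. IFNE, a type I interferon of epithelia, fell from 2.39 ± 0.313 CPM (SD, n = 3) to 0.458 ± 0.177 CPM (SD, n = 6; log2 fold change -2.40 with SE 0.32, adjusted p 0.000131). IFNK, an interferon of keratinocytes, had 57, 33 and 24 counts in the PBS libraries and 0 to 2 in the treated libraries, and was called lower. IFNL2 was called higher at no more than 0.444 CPM in any library (log2 fold change 1.92, adjusted p 0.0121). IFNB1 had 5 to 23 counts per library and was not called (adjusted p 0.940).

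Markers of cells that a mouse host could supply were counted on the human genes of the tables, and whether mouse reads had been removed is not stated. Of all genes, 15.2% rose in the comparison of all treated libraries with PBS. Macrophage markers summed to 8.20 to 8.55 CPM with PBS, 22.9 to 33.3 CPM in P-DXd-titled and 33.3 to 43.8 CPM in T-DXd-titled libraries, and 6 of 8 tested markers of a list of 12 rose with both conjugates, while CD68 was at or below 0.122 CPM and CD163, MRC1 and TYROBP were not listed. Fibroblast markers summed to 1053 to 2020, 1233 to 2141 and 2077 to 2237 CPM (5 of 9 tested rose), and endothelial markers to 4.02 to 6.43, 4.94 to 9.23 and 7.83 to 8.37 CPM (1 of 4 rose). Skeletal muscle markers summed to 1.77 to 43.6 CPM with PBS, 66.8 to 3648 CPM in P-DXd-titled and 181 to 236 CPM in T-DXd-titled libraries, and 7 of 7 rose. The highest muscle and macrophage sums of the P-DXd-titled group were both in replicate 2, the library of that group with the lowest interferon score, whereas in the T-DXd-titled group both were in replicate 2, the library with the highest score of its group. The part of host cells in the changes of the module was not tested.

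The epithelial markers EPCAM, KRT8, KRT18, KRT19 and CDH1 were present in every library, summing to 1633 to 2335 CPM with PBS and 3145 to 3682 CPM in treated libraries, and 2 of 5 rose, against 15.2% of all genes. KLK3 and KLK2, which PC3 is known to lack, were not listed. The labels describe the libraries by animal code and say no more of their independence, so p-values measure the spread between these samples.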

How the data were processed

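RNA-Seq of bulk PC3 xenografts gave 2 deposited tables of raw counts per gene, PBS with either treated group, listing 16098 and 16114 protein-coding genes. The authors trimmed the reads, aligned them with STAR and made the counts with featureCounts, and the submitters' processing notes name GRCh38.p13. Gene positions in the tables differ from those of RefSeq on GRCh38.p14, so none of them is printed. Whether mouse reads were removed and whether strand was used are not given in the sources used here. Columns of the authors' own comparisons were not used.

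Counts were tested with edgeR 4.0.16 in R 4.3.3 (TMM normalization, filterByExpr, quasi-likelihood F test, two-sided, Benjamini-Hochberg adjustment over all genes tested), and a gene was called when its adjusted p was no more than 0.05 with a change of 1.5-fold or more. The PBS libraries were fitted with either treated group on its own table, and all 9 libraries on the 16008 genes in both. DESeq2 1.42.0, other scalings and filters, no fold minimum, glmTreat, a replicate block and leaving out each library were the alternatives. The fits were tested on simulated counts. The score used a prior count of 2. Replicates differed by more than sampling noise in every pair. By chi-square of counts per gene, PBS replicate 1 stood apart, at 316 and 388 against PBS replicates 2 and 3. PBS replicates 2 and 3 were at 37.5 against each other. P-DXd-titled replicate 2 was at 126 and 106 against replicates 1 and 3, which were at 39.8 against each other. The T-DXd-titled pairs were at 17.2 to 27.8.

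The members and lists were chosen with earlier results of these data known. Values per library were given for every receptor, transcription factor, RNA sensor and DNA sensing gene, for up to 3 called genes with the largest change and a mean of at least 100 counts in each other role group, and for genes whose call differed between the treated groups. The study's methods used DESeq2 with the same thresholds. Shared transcript stretches of 100 bases were counted in GENCODE v44, which may differ from the annotation the counts were made with. Values of some genes are not reported here.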

Additional observations from a re-analysis of the deposited data

How the results depend on the processing

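Against PBS, 18, 14 and 17 genes were called in P-DXd-titled, T-DXd-titled and all treated xenografts (25.0%, 28.6% and 32.2% of all genes). Testing against a fold change of 1.5 with glmTreat called 3 in each (7.56%, 11.4% and 16.8% of all genes). Dropping the fold minimum called 28 with all treated libraries (55.7% of all genes). Leaving out 1 library gave 6 to 22, 6 to 18 and 14 to 23 calls. The shares of all genes in those fits were 12.1% to 25.8%, 18.4% to 30.7% and 27.6% to 34.3%. With DESeq2 there were 20, 17 and 18 (28.4%, 31.2% and 32.6% of all genes). The first digit of the animal code, used as the block, did not pair the samples (same-digit deviations correlated at -0.0963 to 0.0954 over 13 pairs, other-digit at -0.176 to 0.148 over 14). A replicate block on it called 19, 6 and 16 (23.5%, 22.8% and 30.7% of all genes). The block lost MX1 in P-DXd-titled (0.82, adjusted p 0.0563), where IFIH1 gained a call (0.72, adjusted p 0.0341). In the pooled comparison IFNAR1 (0.58) and IFIH1 (0.56) were lost. In T-DXd-titled 9 named genes were lost: MB21D1, IFIT2, IFIT3, IFITM2, BST2, ISG15, IFI6, XAF1 and ISG20. A block on the second digit was not run. No gene was called between the treated groups under any alternative. The remaining alternatives stayed within 1.5 times these counts. Of 1218 alternative values for named genes, 1095 stayed on their side of the thresholds, 100 lost a call, 23 gained one and 0 changed direction while called. The score difference of 0.285 ranged from 0.228 to 0.354. With 3 libraries a group, single libraries decided many calls, some at the fold minimum and others at the adjusted p. IFNAR1 in the pooled comparison was lost at the fold minimum without PBS replicate 2 (0.56, adjusted p 0.000651). XAF1 in P-DXd-titled was lost at the adjusted p without replicate 3 of that group (1.14, adjusted p 0.136). The cause was not tested. Depth limited DHX58 and the interferon genes, which had few counts.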
